A study of Mus musculus with 12 samples.

Results

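The genes described here are Nyx, Eqtn, Gpr12, Klrb1c, Slco5a1, Gadd45g, Asph and Papss2. They are known mainly from tissues or pathways other than the B cell lineage. They were chosen by their levels in these libraries: cultured lymphoma cells carried their transcripts, and most of the transcript was missing from lymphoma cells of 1 or both lymph node groups. The choice set no numeric limit. The 8 symbols matched 8 of the 56748 Ensembl gene IDs in the count files. All 8 were among the 13535 genes that passed the filter on low counts, which they passed through their culture libraries.

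The RNA came from cells of a line labelled E_mu-Myc lymphoma, a mouse B cell lymphoma in which an immunoglobulin enhancer drives a Myc transgene, and poly(A) RNA was sequenced. Cells taken straight from culture gave 4 libraries. Cells sorted from lymph nodes of C57BL/6J mice gave 4 libraries on day 11 after injection, with spread through lymphatic vessels, and 4 on day 18, with spread through the blood. These are called the culture, lymphatic and hematogenous groups. Route and day changed together and cannot be told apart. The labels do not give the sort gate, the injection site, the age or sex of the mice, the culture medium or whether the line is 1 clone. They also do not say which libraries come from separate animals or cultures, and the p-values therefore reflect only how far these libraries differ. The tissue field reads lymph node even for cells from culture, and the grouping used the titles.

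Several of these genes are textbook markers of other cells. Nyx encodes nyctalopin, a leucine-rich repeat protein of retinal ON bipolar cells whose loss causes stationary night blindness. Eqtn encodes equatorin, a membrane protein of the sperm acrosome, and Gpr12 an orphan receptor of the brain that raises cyclic AMP. Klrb1c encodes an activating lectin-like receptor that marks natural killer (NK) cells in C57BL/6J mice, and Slco5a1 a member of the organic anion transporter family. The others act in general pathways. Gadd45g encodes a stress-induced protein that binds the kinase Map3k4. Asph encodes an aspartyl hydroxylase of the endoplasmic reticulum, and its locus also encodes calcium store proteins. Papss2 encodes an enzyme that makes the activated sulfate used by sulfotransferases and is known from cartilage.

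Assigned counts ran from 5286775 to 25302016 per library. Levels are given as CPM, counts scaled to a common library size. The summed level of 10 B cell markers was 2704 to 2801 CPM in culture, 2425 to 3037 CPM in the lymphatic group and 3649 to 3887 CPM in the hematogenous group, with Blk at 0 in culture. The sum of 10 T cell markers was at most 0.622 CPM in culture, where Cd3d, Cd4, Cd5, Cd8a, Trbc1 and Trbc2 were at 0. It averaged 43.9 ± 30.8 CPM in lymphatic libraries and 9.30 ± 4.83 CPM in hematogenous libraries (SD, n = 4). Lymphatic 4 stood apart, with 16.0% of its counts in ribosomal protein genes against 7.60% to 9.86% in the other 11 libraries and a T cell sum of 89.0 CPM.

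RefSeq promoter windows (build GRCm38.p6) were found for Nyx, Gpr12, Klrb1c, Gadd45g and Papss2. The 250 bases before the start site are shown for 4 of them, because genes that were low together in the lymph node had promoters of unlike base composition. Capitals mark CG pairs.
Nyx, chrX:13460840-13461089, + strand: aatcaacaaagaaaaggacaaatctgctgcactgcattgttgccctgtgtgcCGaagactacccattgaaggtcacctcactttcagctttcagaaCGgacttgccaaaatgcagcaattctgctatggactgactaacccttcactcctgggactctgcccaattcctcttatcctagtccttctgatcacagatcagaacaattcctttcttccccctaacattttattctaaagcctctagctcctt
Klrb1c, chr6:128788642-128788891, - strand: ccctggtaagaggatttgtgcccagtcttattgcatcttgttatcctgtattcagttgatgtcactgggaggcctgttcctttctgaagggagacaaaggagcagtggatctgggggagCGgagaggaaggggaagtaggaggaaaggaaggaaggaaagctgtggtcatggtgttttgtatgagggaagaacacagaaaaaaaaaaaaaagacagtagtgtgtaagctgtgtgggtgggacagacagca
Gadd45g, chr13:51846425-51846674, + strand: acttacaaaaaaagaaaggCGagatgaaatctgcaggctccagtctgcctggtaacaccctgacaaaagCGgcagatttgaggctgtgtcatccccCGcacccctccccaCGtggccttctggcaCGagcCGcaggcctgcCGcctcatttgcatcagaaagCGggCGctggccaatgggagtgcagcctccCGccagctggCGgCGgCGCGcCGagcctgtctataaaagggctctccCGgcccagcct
Papss2, chr19:32595465-32595714, + strand: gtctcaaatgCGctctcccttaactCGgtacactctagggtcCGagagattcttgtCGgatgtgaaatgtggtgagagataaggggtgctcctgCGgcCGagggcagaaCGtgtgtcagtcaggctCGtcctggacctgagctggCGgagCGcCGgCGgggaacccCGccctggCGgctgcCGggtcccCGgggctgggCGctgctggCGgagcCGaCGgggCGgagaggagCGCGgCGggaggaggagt
The Nyx window held 2 CG pairs and the Klrb1c window 1, against 16 in the Gadd45g window and 24 in the Papss2 window. The median over 32851 windows of the same length was 6. A second Papss2 window held 1 CG pair, and the windows of Gpr12 held 10 and 5. The E-box CACGTG, which MYC and MAX bind, was found in the Gadd45g window and in 6.02% of all windows. The AP-1 motif TGANTCA (6.75% of all windows), the cyclic AMP response element TGACGTCA (1.55%) and the EGR motif GCGTGGGCG (0.536%) were found in none of the 7 windows of these genes. Both strands were searched. A match is a run of letters only.

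All 8 genes were lower in both lymph node groups, and for each the highest lymph node library lay below the lowest culture library. Such separation toward lower levels was seen in 15.5% of all tested genes for the lymphatic group and in 21.8% for the hematogenous group. The lymphatic group kept 2.02% to 21.8% of the mean culture level and the hematogenous group 1.10% to 12.1%. The median log2 change of the 8 genes was −4.24 in the lymphatic group and −5.27 in the hematogenous group, against 0.04 and −0.00075 over all tested genes. Of all tested genes, edgeR called 13.0% lower and 13.4% higher in the lymphatic group, and 13.9% lower and 13.9% higher in the hematogenous group, at an adjusted p under 0.05. These comparisons chose the 8 genes, so their changes are described with a standard error (SE) and carry no test. In bulk RNA, fewer cells with a transcript and less of it per cell cannot be told apart.

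**Figure D1:**
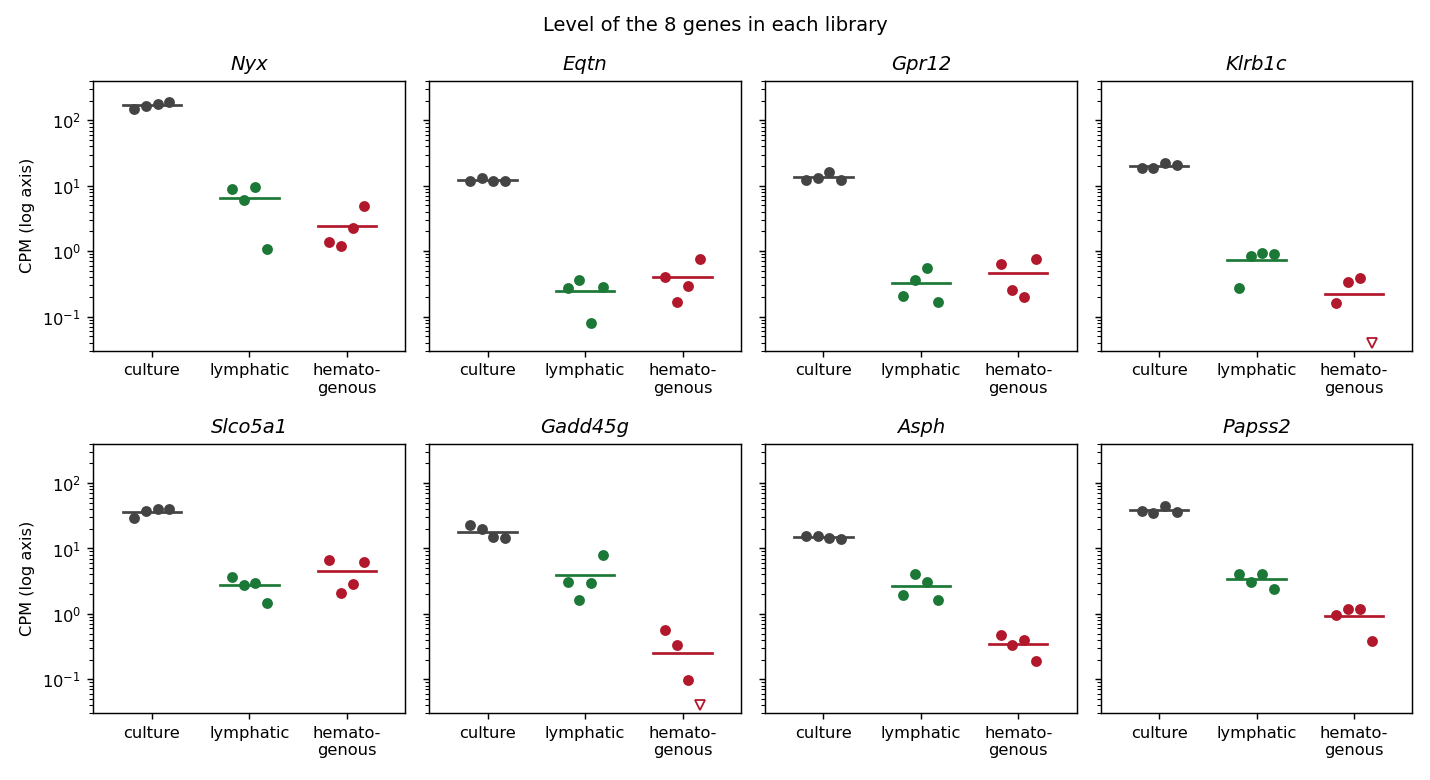
Level of each gene in the 12 libraries, as CPM on a log axis, with the group mean as a line and libraries with 0 counts as open triangles at the foot of the axis. Every culture library lies above every lymph node library of the same gene, and the triangles are hematogenous 4 for Klrb1c and Gadd45g.

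Nyx had the highest level of the 8 genes in culture per length of transcript. Its level was 148, 165, 180 and 190 CPM in culture 1 to 4, 9.06, 6.10, 9.46 and 1.07 CPM in lymphatic 1 to 4, and 1.36, 1.18, 2.25 and 4.94 CPM in hematogenous 1 to 4. Lymphatic 4 was below every hematogenous library while the other lymphatic libraries were above all of them, so the lymph node groups overlapped through 1 library. Against culture the log2 change was −4.75 ± 0.486 in the lymphatic group and −6.31 ± 0.557 in the hematogenous group. A pseudogene annotated within the Nyx locus, Gm14506, stood at 20.7 ± 1.34 CPM in culture, 0.711 ± 0.503 in the lymphatic group and 0.207 ± 0.131 in the hematogenous group (SD, n = 4). Whether counting used strand is not given in the sources used here, and how reads were divided between Nyx and Gm14506 was not tested.

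Eqtn varied least of the 8 in culture, at 12.0, 13.0, 12.0 and 12.0 CPM. The lymphatic libraries held 0.271, 0.359, 0.0789 and 0.281 CPM, and the hematogenous libraries 0.401, 0.168, 0.294 and 0.760 CPM. Each lymph node library had 1 to 9 counts, so the order of the lymph node groups was not resolved at this depth. The change from culture was log2 −5.48 ± 0.329 in the lymphatic group and −5.05 ± 0.343 in the hematogenous group. The sum of 8 germ cell markers did not separate the groups, at 1.17 to 2.30, 1.24 to 2.30 and 1.20 to 2.28 CPM, and Tnp1 and Acr were at 0 in all 3 groups.

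Gpr12 stood at 12.3, 13.2, 16.1 and 12.4 CPM in culture. It stood at 0.203, 0.359, 0.552 and 0.169 CPM in the lymphatic libraries and 0.642, 0.253, 0.196 and 0.760 CPM in the hematogenous libraries. Lymph node libraries of both groups interleaved, with 2 to 9 counts each. Gpr12 changed from culture by log2 −5.38 ± 0.353 and −4.94 ± 0.364, close to that of Eqtn in size.

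Klrb1c was present in cultured cells in which most other NK cell markers were at 0. Its level was 18.7, 18.6, 22.7 and 20.7 CPM in culture, 0.271, 0.837, 0.946 and 0.899 CPM in lymphatic libraries and 0.161, 0.337, 0.391 and 0 CPM in hematogenous libraries. Lymphatic 1 lay within the hematogenous range, and the other lymphatic libraries lay above it. The change from culture was log2 −4.74 ± 0.319 in the lymphatic group and −6.29 ± 0.393 in the hematogenous group. Of 10 NK cell markers other than Klrb1c, 7 had 0 counts over the culture libraries (Ncr1, Klrd1, Klre1, Nkg7, Gzma, Gzmb and Tbx21). Their summed level was 0 to 0.230 CPM in culture, 1.62 to 11.9 CPM in lymphatic libraries and 0.380 to 2.19 CPM in hematogenous libraries. Both lymph node groups were thus above culture in these markers and below it in Klrb1c, while between the lymph node groups the marker sum and Klrb1c were both lower on average in the hematogenous libraries. Lymphatic 1 had the lowest Klrb1c level and the lowest marker sum of its group. Genes of the Klrb1 family resemble each other, and reads that align to several of them may be missing from these counts.

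Slco5a1 kept the largest share of its culture level among the 8 in the hematogenous group. Its level was 29.4, 37.0, 40.4 and 40.2 CPM in culture, 3.72, 2.79, 3.00 and 1.46 CPM in lymphatic libraries and 6.58, 2.10, 2.84 and 6.27 CPM in hematogenous libraries. Hematogenous 1 and 4 were above all lymphatic libraries, and hematogenous 2 and 3 lay within the lymphatic range. Slco5a1 changed from culture by log2 −3.75 ± 0.344 in the lymphatic group and −3.08 ± 0.341 in the hematogenous group.

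Gadd45g had the widest relative spread of the 8 in culture and in the lymphatic group. Its level was 22.6, 20.2, 14.8 and 14.4 CPM in culture, 3.04, 1.64, 3.00 and 8.04 CPM in lymphatic libraries and 0.562, 0.337, 0.0978 and 0 CPM in hematogenous libraries. All lymphatic libraries lay above all hematogenous ones, and lymphatic 4 was the highest of them. The change from culture was log2 −2.20 ± 0.420 in the lymphatic group, or −2.86 without lymphatic 4, and −5.88 ± 0.596 in the hematogenous group, which held 12 counts in all.

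Asph was counted over its whole locus, so the hydroxylase and the calcium store proteins were not separated. Its level was 15.6, 15.3, 14.4 and 14.1 CPM in culture, 1.96, 4.03, 3.08 and 1.63 CPM in lymphatic libraries and 0.482, 0.337, 0.391 and 0.190 CPM in hematogenous libraries. The 3 groups did not overlap. Asph changed from culture by log2 −2.45 ± 0.257 in the lymphatic group and −5.28 ± 0.342 in the hematogenous group.

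Papss2 was also separated in all 3 groups. Its level was 37.3, 35.4, 45.3 and 35.6 CPM in culture, 4.06, 3.11, 4.10 and 2.36 CPM in lymphatic libraries and 0.963, 1.18, 1.17 and 0.380 CPM in hematogenous libraries. Papss2 changed from culture by log2 −3.50 ± 0.217 and −5.27 ± 0.258.

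Levels of different genes were compared as CPM per kilobase of merged exons, with lengths from a GENCODE annotation of build GRCm38. In culture Nyx stood at 33.0 CPM per kb, above 88.2% of the 13327 tested genes with a length. Gadd45g (15.3 CPM per kb), Papss2 (10.3), Eqtn (9.52), Klrb1c (6.82) and Gpr12 (5.38) followed, above 73.9%, 63.8%, 61.7%, 53.1% and 46.9% of genes. Slco5a1 (2.80 CPM per kb) and Asph (0.921) lay above 32.9% and 15.7%. In the lymphatic group Gadd45g was the highest of the 8, at 3.35 CPM per kb, above 37.0% of genes. In the hematogenous group Nyx was above 9.14% of genes and the other 7 lay lower.

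The lymph node groups were then set beside each other. Their libraries had served to choose the 8 genes, which could qualify by a strong fall in 1 lymph node group alone, so the differences between the lymph node groups are described with an SE and a 95% interval and carry no test. Gadd45g, Asph and Papss2 had every lymphatic library above every hematogenous one, and groups that did not overlap made up 24.6% of all tested genes.

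Gadd45g had the largest difference of the 8, log2 3.69 ± 0.619 higher in the lymphatic group (interval 2.36 to 5.02), or 3.01 without lymphatic 4. Asph was higher by log2 2.82 ± 0.357 (2.06 to 3.59) and Papss2 by 1.77 ± 0.266 (1.20 to 2.34). Klrb1c was higher by log2 1.54 ± 0.479 (0.52 to 2.57), on 53 counts against 10. The sum of the NK cell markers was higher in the lymphatic group too, at 5.24 ± 4.56 CPM against 1.27 ± 0.759 CPM (SD, n = 4), and its part in the Klrb1c difference was not tested.

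Nyx was higher by log2 1.56 ± 0.544 in the lymphatic group (0.39 to 2.73), or by 1.95 without lymphatic 4, with groups that overlapped. The difference was −0.43 ± 0.585 for Eqtn (−1.58 to 0.71), −0.45 ± 0.470 for Gpr12 (−1.46 to 0.56) and −0.67 ± 0.352 for Slco5a1 (−1.43 to 0.08). Each of these 3 intervals includes 0, and differences within them were not resolved. Eqtn rested on 19 counts against 14 and Gpr12 on 22 against 17. Slco5a1 had 189 counts against 169, and its hematogenous libraries spread from 2.10 to 6.58 CPM.

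**Figure D2:**
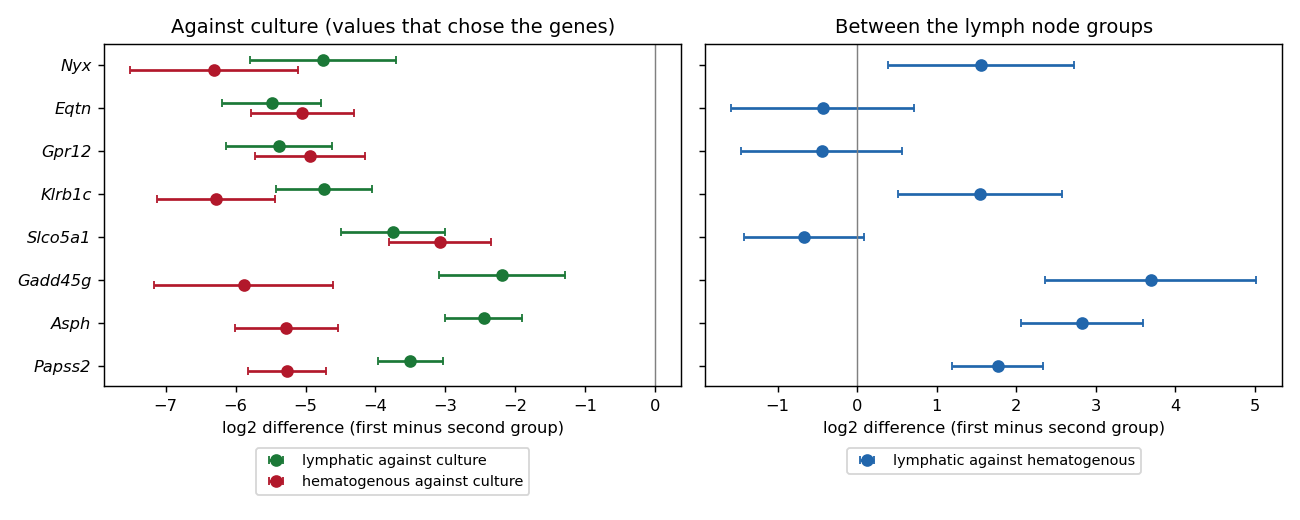
Log2 difference of each gene between groups with 95% intervals, against culture on the left and lymphatic minus hematogenous on the right. On the right Gadd45g, Asph, Papss2, Klrb1c and Nyx have intervals above 0, and the intervals of Eqtn, Gpr12 and Slco5a1 include 0. The intervals are for each gene alone, without adjustment. They carry no test, since these libraries served to choose the genes.

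Other genes of the same pathways were read from 8 lists of 228 genes, of which 111 were tested. In the lymphatic group 14 were called higher and 30 lower than in culture, 39.6% of the 111 beside 26.4% of all genes. In the hematogenous group 13 were called higher and 27 lower, 36.0% beside 27.8%. Their median log2 changes were −0.15 and −0.17. Between the lymph node groups 15 were called higher and 17 lower in the lymphatic group, 28.8% beside 22.3% of all genes, of which 11.4% were higher and 10.9% lower.

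The retinal genes listed beside Nyx were mostly untested for lack of counts. Only 2 of 13 passed the filter, Cabp4 and Cacna1f. The ON bipolar receptor Grm6 and channel Trpm1 had 1 and 2 counts over the culture libraries. Gnb5, the untested gene of this list with the most culture counts (35), was lower in the lymph node. It stood at 1.05 ± 0.491, 0.155 ± 0.161 and 0.0930 ± 0.0778 CPM in the culture, lymphatic and hematogenous groups. Rgs11 stood at 0.399 ± 0.336, 0.148 ± 0.0720 and 0.0455 ± 0.0528 CPM. Gnb3 went the other way, at 0.0288 ± 0.0576, 0.0494 ± 0.0746 and 0.234 ± 0.175 CPM. The sum of 6 retinal markers was 0.174 to 0.461 CPM in culture, 0.203 to 0.598 CPM in the lymphatic group and 0.168 to 0.401 CPM in the hematogenous group, with Crx at 0 in all 3. Cabp4, a synaptic calcium sensor, rose from 0.416 ± 0.118 to 1.20 ± 0.349 CPM in the lymphatic group (edgeR adjusted p = 0.00756). The calcium channel gene Cacna1f stood at 1.70 ± 0.368 CPM in culture, 1.28 ± 1.02 in the lymphatic group and 0.321 ± 0.358 in the hematogenous group. Its call in the hematogenous group (log2 −2.27 ± 0.739, edgeR adjusted p = 0.0338) was lost without any 1 of culture 1, 2 or 4 or hematogenous 1, 2 or 4, where the adjusted p was up to 0.106.

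Of 25 acrosome genes listed beside Eqtn 6 were tested, and those called were higher in the lymph node. Adam3, a sperm surface protein, rose from 0.186 ± 0.0593 CPM to 1.36 ± 0.309 in the lymphatic group (edgeR adjusted p = 1.62e-04) and 0.991 ± 0.210 in the hematogenous group (9.63e-04). Izumo4 stood at 2.72 ± 0.628, 4.76 ± 0.988 and 4.33 ± 1.42 CPM in the culture, lymphatic and hematogenous groups. Its lymphatic call (edgeR adjusted p = 0.0444) was lost without any 1 of 8 libraries, namely culture 1, 2 or 4, each of lymphatic 1, 3 and 4, and hematogenous 1 or 3, where the adjusted p was up to 0.115.

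The receptors most like Gpr12 were nearly absent, with Gpr6 at 0 counts and Gpr3 at 1 count over the culture libraries. Of 20 tested genes of the cyclic AMP pathway 1 rose and 8 fell in the lymphatic group, and 2 rose and 3 fell in the hematogenous group (median log2 −0.33 and −0.24). Rapgef3, an exchange factor that cyclic AMP activates, fell from 73.1 ± 12.5 CPM to 15.2 ± 4.97 (log2 −2.27 ± 0.287, edgeR adjusted p = 5.96e-05) and 9.74 ± 4.43 (log2 −2.89 ± 0.301, edgeR adjusted p = 6.42e-06). Pde3b, which breaks down cyclic AMP, fell from 109 ± 8.71 to 74.0 ± 15.2 and 41.1 ± 5.67 CPM (edgeR adjusted p = 0.0143 and 1.04e-05). Prkar2b, a regulatory subunit of the cyclic AMP dependent kinase, rose from 47.3 ± 2.52 to 106 ± 12.2 and 106 ± 15.0 CPM (edgeR adjusted p = 1.24e-05 and 8.20e-06). Gnas, the stimulatory G protein subunit, fell in the lymphatic group from 226 ± 14.0 to 131 ± 26.7 CPM (edgeR adjusted p = 6.17e-04).

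NK cell genes beside Klrb1c were called in both directions. Of 39 receptors, ligands and effectors 10 were tested, of which 6 rose and 2 fell in the lymphatic group and 5 rose and 2 fell in the hematogenous group (median log2 1.22 and 2.56). Klrb1, a receptor of the same family, fell from 8.26 ± 1.34 CPM to 2.84 ± 0.436 (edgeR adjusted p = 1.02e-04) and 2.29 ± 0.527 (1.86e-05). Clec2i, a lectin from the family of Klrb1 ligands, fell from 44.2 ± 3.36 CPM to 10.8 ± 1.94 (edgeR adjusted p = 1.43e-06) and 9.77 ± 2.19 (5.06e-07). Klrb1a, Klrb1b and Klrb1f had 8, 0 and 1 counts over the culture libraries and were not tested.

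Il2rb, a cytokine receptor chain of NK and T cells, had 0 counts in culture. It was at least 26.7-fold higher in the lymphatic group and at least 8.89-fold higher in the hematogenous group, against a floor of 3 counts over the culture group (edgeR adjusted p = 1.38e-04 and 0.00185). Fcer1g, an adaptor through which Klrb1c signals and which myeloid cells also express, rose from 0.121 ± 0.0907 to 1.78 ± 1.26 and 1.06 ± 0.314 CPM (edgeR adjusted p = 7.76e-04 and 0.00605). The T cell sums given above and the sum of 10 macrophage and monocyte markers (17.5 to 22.5 CPM in culture, 34.8 to 86.4 in the lymphatic group and 28.5 to 34.1 in the hematogenous group, with Lyz2, Fcgr1, Marco, C1qa and C1qb at 0 in culture) were higher in the same libraries. Their part in these rises was not tested.

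Slco4a1 was the 1 tested gene among 14 other organic anion transporters, at 78.0 ± 2.37 CPM in culture, 53.4 ± 14.6 in the lymphatic group and 54.8 ± 10.3 in the hematogenous group. Its lymphatic call (log2 −0.55 ± 0.182, edgeR adjusted p = 0.0387) was lost without any 1 of the 4 culture libraries, lymphatic 1, lymphatic 2 or hematogenous 1, where the adjusted p was up to 0.0834.

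Within the GADD45 family Gadd45b changed in the other direction from Gadd45g. It rose from 4.06 ± 0.648 CPM to 27.4 ± 12.4 in the lymphatic group (log2 2.75 ± 0.282, edgeR adjusted p = 9.33e-06) and 18.6 ± 3.26 in the hematogenous group (log2 2.19 ± 0.283, edgeR adjusted p = 4.78e-05). Gadd45a stood at 6.13 ± 1.10, 4.77 ± 1.31 and 3.87 ± 0.688 CPM in the culture, lymphatic and hematogenous groups (edgeR adjusted p = 0.267 and 0.0598). The hematogenous difference of Gadd45a passed without culture 4 (0.0453), lymphatic 2 (0.0433) or lymphatic 4 (0.0323), as adjusted p. Of 23 tested genes of the family and its stress kinases 2 rose and 3 fell in the lymphatic group, and 1 rose and 4 fell in the hematogenous group. Dusp10, a phosphatase of the stress kinases, fell from 15.8 ± 1.37 to 3.38 ± 0.996 and 4.43 ± 0.802 CPM (edgeR adjusted p = 9.41e-06 and 3.87e-05). In the hematogenous group the cell cycle inhibitor Cdkn1a fell from 6.59 ± 1.02 to 2.69 ± 1.09 CPM (edgeR adjusted p = 0.00283) and the kinase Mapk12 from 6.76 ± 1.21 to 3.30 ± 0.676 CPM (0.00814).

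Among hydroxylases listed beside Asph, several fell further in the hematogenous group. Of 26 tested hydroxylase and calcium store genes 1 rose and 7 fell in the lymphatic group, and 2 rose and 9 fell in the hematogenous group. Between the lymph node groups 6 were called higher in the lymphatic group, all hydroxylases, and 5 lower, all calcium store genes. P4ha1, a collagen prolyl hydroxylase, stood at 133 ± 7.17 CPM in culture, 97.2 ± 16.8 in the lymphatic group and 26.9 ± 2.36 in the hematogenous group, and the lymph node groups differed by log2 1.85 ± 0.129 (edgeR adjusted p = 1.90e-06). Egln1, the hydroxylase of oxygen sensing, stood at 89.0 ± 7.63 CPM in culture, 46.4 ± 11.7 in the lymphatic group and 23.0 ± 2.44 in the hematogenous group, with a difference of log2 1.01 ± 0.161 (edgeR adjusted p = 7.30e-04). P3h1, another collagen hydroxylase, stood at 3.43 ± 0.808 CPM in culture, 1.98 ± 0.138 in the lymphatic group and 0.552 ± 0.208 in the hematogenous group, with a difference of log2 1.88 ± 0.315 (edgeR adjusted p = 0.00105). The calcium channel Ryr3 fell from 2.65 ± 0.750 to 0.611 ± 0.250 and 0.825 ± 0.327 CPM (edgeR adjusted p = 0.00118 and 0.00725).

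Of 23 tested genes of sulfate activation, transport and transfer, 1 rose and 9 fell in the lymphatic group, and 2 rose and 8 fell in the hematogenous group (median log2 −0.25 and −0.18). Chst11, a chondroitin sulfotransferase, fell from 18.0 ± 0.796 CPM to 4.03 ± 1.91 (log2 −2.18 ± 0.295, edgeR adjusted p = 1.06e-04) and 0.915 ± 0.302 (log2 −4.22 ± 0.356, edgeR adjusted p = 9.18e-07). Like Papss2 it was higher in the lymphatic than in the hematogenous group, by log2 2.04 ± 0.359 (edgeR adjusted p = 0.00144). Genes of this list went both ways between the lymph node groups, with 5 called higher and 4 lower in the lymphatic group. The 4 lower ones were sulfotransferase genes. Bpnt1, which clears the by-product of sulfate transfer, fell from 53.8 ± 4.54 to 34.5 ± 1.16 and 20.4 ± 1.19 CPM (edgeR adjusted p = 4.40e-04 and 3.73e-07).

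The sulfotransferase Chst10 fell from 2.87 ± 0.454 to 0.993 ± 0.567 and 0.464 ± 0.325 CPM (edgeR adjusted p = 0.0139 and 0.00117), and the sulfatase Sulf2 from 2.67 ± 0.403 to 0.810 ± 0.376 and 0.804 ± 0.285 CPM (0.00170 and 0.00247). Papss1, the paralog of Papss2 that makes the same activated sulfate, stood at 41.5 ± 3.88 CPM in culture, 30.4 ± 4.45 in the lymphatic group and 36.7 ± 2.40 in the hematogenous group. Its lymphatic call (log2 −0.45 ± 0.129, edgeR adjusted p = 0.0197) was lost without culture 1 (0.0576) or culture 2 (0.0628), as adjusted p, and its hematogenous change was log2 −0.18 ± 0.130 (edgeR adjusted p = 0.360).

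**Figure D3:**
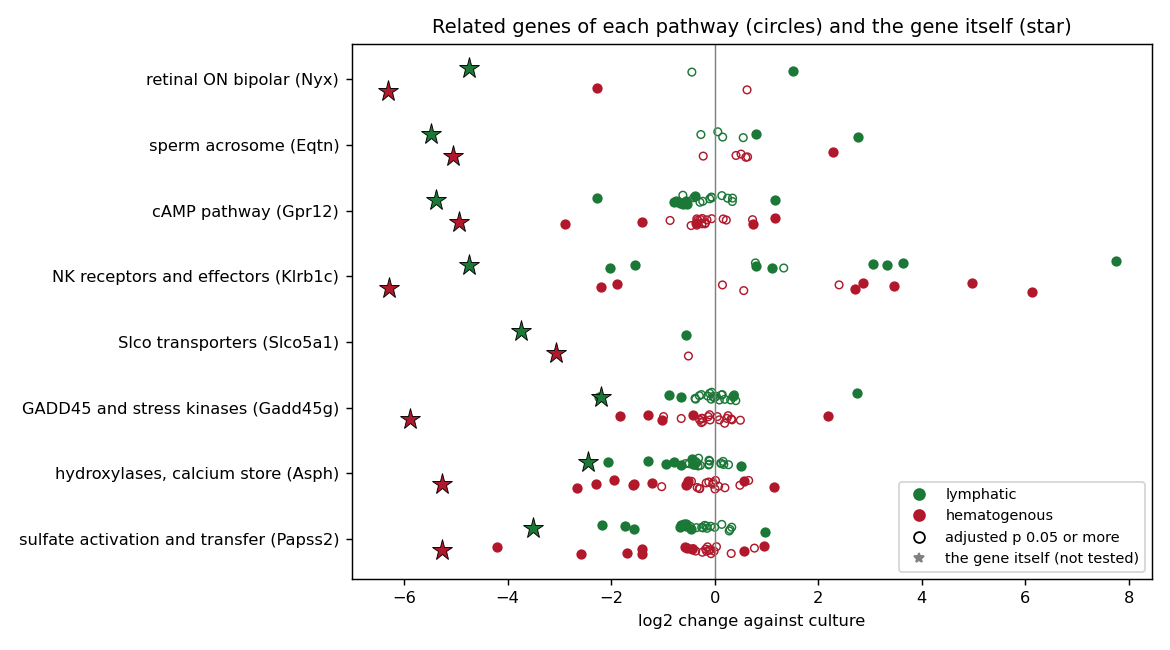
Log2 change against culture of the tested genes of each pathway list (circles, filled where the adjusted p is under 0.05) and of the gene that heads the list (star), in the lymphatic and hematogenous groups. The stars lie between −2.20 and −6.31, and the median of the circles is −0.15 and −0.17.

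Chromosomal neighbours were read as the 5 nearest protein-coding genes on each side of each gene in RefSeq order, 80 genes of which 43 were tested. In the lymphatic group 7 were called higher and 9 lower than in culture, 37.2% beside 26.4% of all genes. In the hematogenous group 7 were called higher and 10 lower, 39.5% beside 27.8%. The 5 tested neighbours of Eqtn changed by log2 −0.41 to 0.47 and −0.77 to 0.46, with smallest edgeR adjusted p of 0.192 and 0.107. Its other neighbours had too few counts to be tested. Of these Tek, next to Eqtn, was lower in the lymph node, at 0.9499 ± 0.3378, 0.0637 ± 0.0499 and 0.0676 ± 0.0899 CPM in the 3 groups. Hook1 went the other way, at 0.0576 ± 0.115, 0.578 ± 0.198 and 0.308 ± 0.2797 CPM. The rest averaged at most 0.122 CPM in every group. In each comparison with culture, no tested neighbour of the 8 genes was lowered as far as the gene it stands beside. The 8 genes were chosen by strong falls in these libraries, which made this order likely from the start.

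Beside Klrb1c, the lectins Klrb1 and Clec2i fell as given above while other lectin genes of the cluster were higher. Clec2h rose in the hematogenous group from 0.222 ± 0.218 to 2.26 ± 0.591 CPM (edgeR adjusted p = 0.00185). Clec2g had 1 count in culture and 46 in the hematogenous group, a ratio of 42.3 (95% counting interval 7.22 to 1706, edgeR adjusted p = 7.63e-04). Beside Gadd45g, the GTPase gene Diras2 rose from 11.6 ± 1.81 to 49.4 ± 11.2 and 52.4 ± 8.06 CPM (edgeR adjusted p = 3.46e-06 and 1.52e-06). In the hematogenous group Syk, the kinase of the B cell receptor, rose from 321 ± 11.3 to 825 ± 123 CPM (edgeR adjusted p = 1.14e-04) and the transcription factor gene Nfil3 fell from 3.94 ± 0.965 to 1.67 ± 0.422 CPM (0.00389).

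Trp53inp1, a p53-induced gene 5 places from Asph, fell from 197 ± 12.9 to 57.6 ± 18.0 and 110 ± 21.3 CPM (edgeR adjusted p = 3.47e-05 and 0.00699). Beside Papss2, 4 of 6 tested neighbours fell in the hematogenous group, and 1 rose and 2 fell in the lymphatic group. Atad1, a mitochondrial ATPase next to Papss2, fell from 663 ± 28.8 to 458 ± 50.3 and 291 ± 14.5 CPM (edgeR adjusted p = 0.00146 and 1.08e-06).

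**Figure D4:**
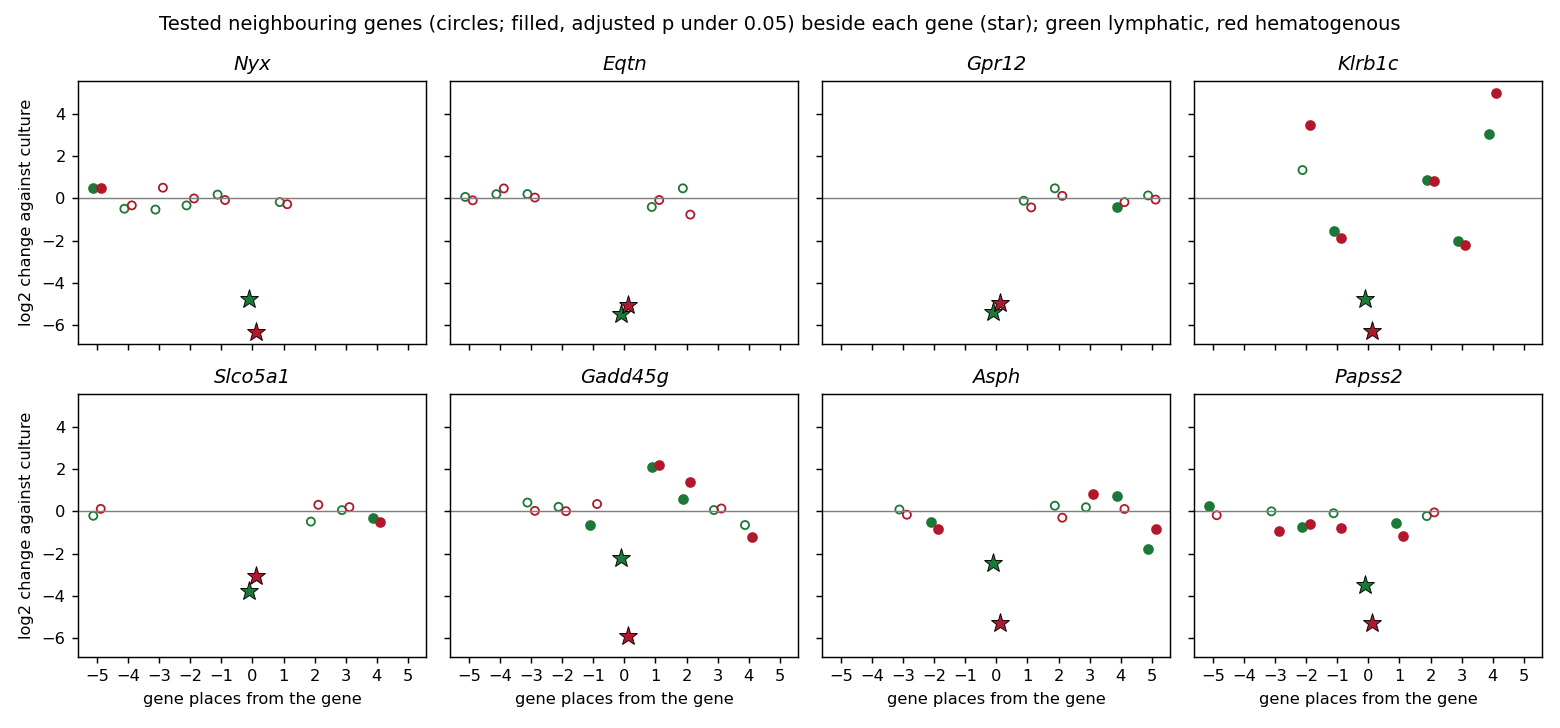
Log2 change against culture of the tested neighbours of each gene by place in gene order (circles, filled where the adjusted p is under 0.05), beside the gene itself (star at place 0), in the lymphatic and hematogenous groups. In each panel the star lies below every circle of the same group, an order made likely by the choice of genes with strong falls.

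Genes most like each of the 8 were sought among 8908 tested genes of 5 CPM or more in culture, by the root mean square difference of log2 CPM over the 12 libraries after centring on culture. The log2 CPM used a prior count of 2, which flattens falls to few counts, so likeness does not mean an equal fold change. Bhlhe40, a transcription factor, was nearest to Gpr12 (0.66), Eqtn (0.72) and Klrb1c (0.86), at 75.5 ± 3.31 CPM in culture, 4.16 ± 0.946 in the lymphatic group and 2.77 ± 0.724 in the hematogenous group. The second nearest were Ms4a4a for Gpr12 (0.93), Alcam for Eqtn (0.94) and Jag2 for Klrb1c (0.93). Lama5 (0.94) and Tgfb3 (1.01) were nearest to Nyx, and Cacna1d (0.55) was among the 2 nearest to Slco5a1.

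Slc16a3, a lactate exporter, was nearest to Gadd45g (0.61), at 93.9 ± 14.3 CPM in culture, 33.3 ± 21.6 in the lymphatic group and 1.29 ± 0.535 in the hematogenous group. The metallothionein Mt1 followed (0.75), at 141 ± 34.5, 54.4 ± 38.8 and 4.18 ± 2.33 CPM in the 3 groups. Kif26a and Gpr176 (0.54 each) were nearest to Asph, and Scn8a (0.57) and Tmem51 (0.64) to Papss2. Among the 8 genes the closest pair was Eqtn and Gpr12 (0.50), followed by Asph and Papss2 (0.69), and Nyx and Gadd45g were farthest apart (2.15). The measure describes libraries that fall into 3 groups and carries no test.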

How the data were processed

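Per the submitters' processing notes, the read processing used FastQC 0.11.9, Trimmomatic 0.39, HISAT2 2.1.0 and HTSeq 2.0.2 with build GRCm39. Reads were stranded and single-ended according to the labels, and whether the counting used strand is not given in the sources used here. Each deposited file holds whole-number counts for each Ensembl gene of 1 library, not normalized by the authors. Reads assigned to no gene, in 5 summary lines, made up 30.3% to 36.5% of each library and did not enter library sizes. Symbols were found for 91.8% of IDs, and no symbol of the 8 genes belonged to several IDs. The reference annotation is of build GRCm38 and served only for symbols, gene order, exon lengths and promoter windows.

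All 12 libraries were fitted together on group with edgeR 4.0.16 (R 4.3.3), using filterByExpr, TMM factors and the quasi-likelihood F test, two-sided, with Benjamini-Hochberg adjustment over 13535 genes and a threshold of 0.05. DESeq2 1.42.0 was an alternative. CPM use TMM factors and are given as mean ± SD over 4 libraries. The SE was derived from the F value, or from the p where edgeR held it at its Poisson bound, and is approximate. Scripts were tested on simulated counts. Floors and counting intervals cover counting error only. Alternatives were other scaling, no filter, DESeq2, fits of 2 groups, a replicate block and leaving out each library.

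A test of the 8 genes between the lymph node groups was planned and is given as a description only, since the choice of genes used those libraries. The genes, lists and tests were chosen with earlier results of these data known. Beside the 8, the text names up to 4 called genes per list with at least 1 CPM and the largest change from culture, genes of the same families, called neighbours changed by log2 1 or more (at most 3 per gene), and the 2 most similar genes of each, of which 1 is not reported here. Gm14506, Grm6, Trpm1, Gnb5, Rgs11, Gnb3, Tek, Hook1 and the untested family members were named after their values were seen.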

Additional observations from a re-analysis of the deposited data

Results flagged for a closer look

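Only genes named above are listed here. By edgeR's test of lymphatic against hematogenous libraries, 32 of 111 tested pathway genes were called, 15 higher and 17 lower in the lymphatic group. Among those named above the change from culture differed between the routes for Pde3b (log2 0.85), Gnas (−0.54), Il2rb (1.62), Clec2g (−1.92), Clec2h (−2.13), Mapk12 (1.41), P3h1 (1.88), P4ha1 (1.85), Egln1 (1.01), Chst11 (2.04) and Bpnt1 (0.75). Positive values are higher in the lymphatic group. Among the 43 tested neighbours 6 were called higher and 8 lower in the lymphatic group, 32.6% beside 22.3% of all genes. Those named above and not yet listed were Syk (−0.78), Trp53inp1 (−0.93) and Atad1 (0.65). Of all calls listed here, that of Il2rb was lost without hematogenous 1, 2 or 4 and with the replicate block. The call of Clec2g was lost without hematogenous 1 or 4 or lymphatic 1, and that of Clec2h without hematogenous 1. With only the 2 compared groups in the fit, the calls of Gnas and Syk were lost (edgeR adjusted p = 0.0590 and 0.058).

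In some groups 1 library lay far from the other 3 by Dixon's criterion, which chance meets in about 1 of 20 groups, and 125 groups were examined. Among the 8 genes these were culture 2 for Eqtn (highest, 13.0 CPM) and lymphatic 1 for Klrb1c (lowest, 0.271 CPM). Lymphatic 4 was the highest for Il2rb (3.65 CPM), Fcer1g (3.65 CPM), Gadd45b (45.8 CPM) and Cdkn1a (4.22 CPM) and the lowest for Adam3 (0.899 CPM). In culture the highest were culture 3 for Izumo4 (3.65 CPM) and Nfil3 (5.37 CPM) and culture 4 for Clec2g (0.115 CPM), and the lowest was culture 4 for Cdkn1a (5.07 CPM). In the hematogenous group they were hematogenous 1 for Rapgef3 (highest, 16.3 CPM), and hematogenous 2 for P4ha1 (highest, 30.4 CPM) and Trp53inp1 (lowest, 78.3 CPM).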

How the results depend on the processing

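The falls of the 8 genes against culture kept their direction under all 18 alternatives, and moved beyond the spread of replicates only for Gadd45g in the lymphatic group without lymphatic 4. Between the routes Gadd45g (log2 3.01 to 4.36), Asph (2.52 to 3.00), Papss2 (1.60 to 1.88), Klrb1c (1.32 to 1.84) and Nyx (1.31 to 2.00) were higher in the lymphatic group, and Eqtn, Gpr12 and Slco5a1 lower, under each alternative that gave a value. With only the compared groups in the fit, genes called numbered 6344 in place of 3760 for hematogenous against culture and 1734 in place of 3012 between the routes. Pathway genes called then numbered 69 in place of 40 and 20 in place of 32, and neighbours called 10 in place of 16 for lymphatic against culture and 8 in place of 14 between the routes. Leaving out single libraries, genes called ranged from 3125 to 5930 for hematogenous against culture (5930 without lymphatic 4) and from 2002 to 4333 between the routes (2002 without hematogenous 1). Pathway genes called for hematogenous against culture ranged from 33 to 69 (69 without lymphatic 4). Neighbours called ranged from 10 to 21 for lymphatic against culture (10 without culture 3 or 4) and from 8 to 17 between the routes (8 without hematogenous 1). Libraries with the same replicate number did not deviate together (12 correlations from −0.181 to 0.0919). Low correlations cannot show whether the numbers pair libraries, which the labels do not state. With the replicate block neighbours called for lymphatic against culture numbered 10. The cause of these shifts was not tested. Counts of 1 to 9 per lymph node library limit the order of the lymph node groups for Eqtn and Gpr12. The 10 hematogenous counts of Klrb1c, whose lymph node groups overlapped, limit that order too. For Gadd45g and Asph, whose groups did not overlap, the 12 and 15 hematogenous counts limit the size of the difference.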
